A study of Mus musculus with 8 samples.

Results

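The 9 genes described here, *Hdc*, *Tph1*, *Ddc*, *Slc18a2*, *Slc6a4*, *Slc22a3*, *Maoa*, *Maob* and *Hnmt*, encode the enzymes and transporters that make, store, recover and break down histamine and serotonin. They were chosen by gene symbol, and 9 of 9 were found among the 24059 symbols counted in 8 samples of BMMCs, the mast cells that murine bone marrow yields in culture. Marrow of young adult C57BL/6 mice had been cultured with IL-3 for at least 4 weeks, and the BMMCs were then transfected with Cas9-gRNA ribonucleoproteins (RNPs). In 4 samples the RNPs targeted *Zc3h12a*, which encodes the RNA-binding protein Regnase-1 (labelled genotype Zc3h12a KO), and in 4 samples they carried a scrambled guide that targets no gene (labelled Zc3h12a WT). RNA was extracted from resting cells after 1 week and poly(A) RNA was sequenced. The cells of 4 mice received both RNPs, so samples with the same replicate number were compared as a pair. The edited cells are a bulk population of transfected cells and no clone.

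Mast cells make histamine from histidine in 1 step, catalysed by histidine decarboxylase, and rodent mast cells also make serotonin from tryptophan, by hydroxylation and then decarboxylation. Both amines are carried from the cytoplasm into secretory granules by a vesicular transporter that exchanges them for protons, and they are released when the cell degranulates. Outside the granule, plasma membrane carriers take the amines up again, monoamine oxidases oxidise serotonin, and histamine N-methyltransferase inactivates histamine.

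The total count per sample was 19610240 to 33986762 after scrambled RNP and 23712029 to 28564062 after *Zc3h12a* RNP. Values below are CPM, the counts of a gene relative to the total of its library, with the totals scaled by the trimmed mean of M values (TMM). *Zc3h12a* itself had 35 ± 6.65 CPM (SD, n = 4) after scrambled RNP and 33.2 ± 5.91 CPM (SD, n = 4) after *Zc3h12a* RNP, higher in 2 of 4 pairs, and a gene count of this kind does not show whether the reading frame was cut. The labels are therefore not checked by the RNA of the targeted gene. The 8 mast cell markers summed to 53240 to 62870 CPM after scrambled RNP and to 50540 to 54520 CPM after *Zc3h12a* RNP, led per length by *Cpa3*, the mast cell carboxypeptidase. *Cpa3* alone had 26730 to 34240 CPM over the 8 samples, while *Mcpt4*, also among the 8 markers, had only 2.24 to 7.94 CPM. Of the markers of other cells that also handle these amines, the basophil proteases *Mcpt8* and *Prss34* stood at 1.43 to 8.51 and 0.905 to 2.25 CPM, while *Cd200r3*, which mast cells also express, reached 439 to 535 CPM. The platelet chemokine gene *Pf4* had 0.167 to 2.9 CPM and *Gp6* at most 0.118 CPM, although *Itga2b*, an integrin gene also known from mast cells, had 1261 to 2026 CPM. Markers of macrophages (6 measured, 8.15 to 10.5 CPM in sum, led per length by *Lyz2*, with *Csf1r* at most 0.143 CPM), neutrophils (3 measured, at most 0.333 CPM in sum, led by *Mpo*) and B cells (3 measured, at most 0.52 CPM in sum, led by *Cd79a*) were low.

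The levels of the 9 genes, set against each other per kilobase of annotated exon, spread over 4 orders of magnitude. *Tph1*, the rate-limiting enzyme of serotonin synthesis outside the brain, stood first with a median over the 8 samples of 1160 CPM per kilobase (range 1039 to 1268), which put it at rank 15 of 22603 genes with a length. *Maob*, a mitochondrial monoamine oxidase, followed at 161.8 CPM per kilobase and *Slc18a2*, the vesicular monoamine transporter VMAT2, at 156.3. *Maob* was above *Slc18a2* in 3 of 8 samples, so these neighbours did not differ beyond their spread. *Hdc*, histidine decarboxylase, had a median of 13.2 CPM per kilobase (range 8.8 to 35.8) and lay below both in 8 of 8 samples. In every sample the level of *Tph1* per kilobase was 32.5 to 121 times that of *Hdc* (18.9 to 70.5 times with the length of the canonical transcript). The other 5 genes stood at or below about 1 CPM per kilobase, with medians of 0.839 for *Ddc*, 0.308 for *Slc6a4*, 0.285 for *Slc22a3*, 0.203 for *Maoa* and 0.0984 for *Hnmt*. *Ddc* was above *Slc6a4* in 8 of 8 samples, whereas *Slc6a4* was above *Slc22a3* in 5 of 8. With the length of the canonical transcript in place of the exon union, the order of the medians was the same and the values were higher, at 1700 CPM per kilobase for *Tph1*, 236 for *Maob*, 211 for *Slc18a2*, 33.2 for *Hdc* and 2.46 for *Ddc*.

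**Figure D1:**
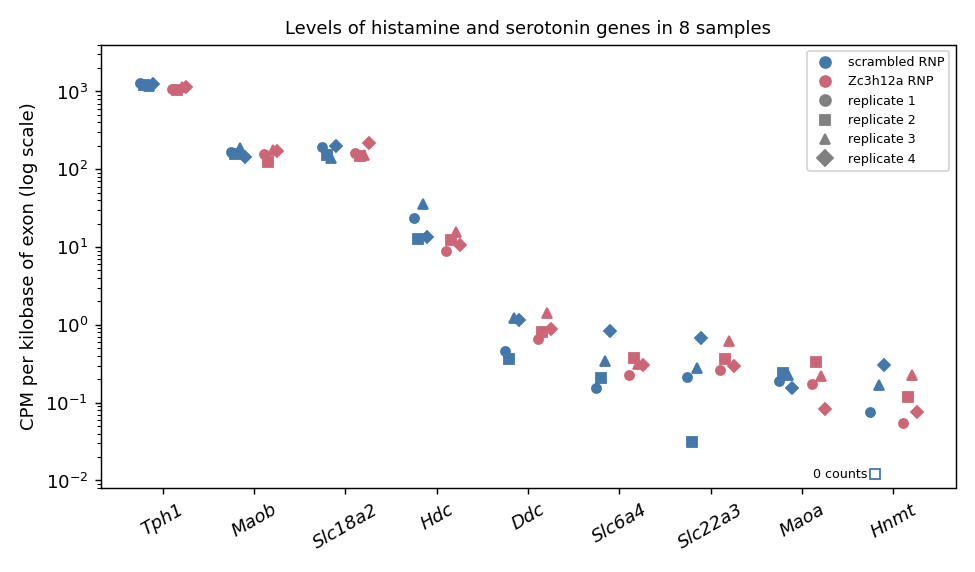
Level of each of the 9 genes in the 8 samples, in CPM per kilobase of exon on a log axis, with the scrambled RNP samples in blue and the *Zc3h12a* RNP samples in red and a symbol for each replicate number. *Tph1*, *Maob*, *Slc18a2* and *Hdc* stand above 8 CPM per kilobase in all 8 samples and the other 5 genes below 2, and the open square marks the sample in which *Hnmt* had 0 counts.

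The synthesis of histamine was represented by *Hdc*, on chromosome 2 at 126435558 to 126461318 on the minus strand (GRCm39), and the first step of serotonin synthesis by *Tph1*, on chromosome 7 at 46294065 to 46321965 on the minus strand. Their start regions are shown because these were the members lower after *Zc3h12a* RNP in all 4 pairs at TMM scaling, with that of *Slc18a2*, an abundant member that split between the pairs, beside them. RefSeq start regions, on the older build GRCm38.p6, matched 8 of the 9 symbols with 10 starts; *Maob* was not matched. Each sequence gives the 130 bases before a start, 5′ to 3′ on the strand of the gene, and capitals mark matches to motifs searched on both strands in the 250 bases before the start. The motifs were GATAA, known as the core that GATA factors bind, an E-box read by MITF and related factors (CATGTG), the E-box with a central CG (CACGTG), the TATA box (TATAAA), the GC box that Sp1 is known to bind (GGGCGG), and the CCAAT box. In the windows of the members no match overlapped another.
Hdc (chr2:126618679-126618808, minus strand): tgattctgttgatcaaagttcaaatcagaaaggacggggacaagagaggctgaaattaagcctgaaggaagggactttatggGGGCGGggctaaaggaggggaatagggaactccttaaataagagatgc
Tph1, upstream start (chr7:46672538-46672667, minus strand): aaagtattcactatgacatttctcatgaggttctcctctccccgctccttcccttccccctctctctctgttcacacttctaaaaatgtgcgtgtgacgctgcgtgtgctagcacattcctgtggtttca
Tph1, downstream start (chr7:46667378-46667507, minus strand): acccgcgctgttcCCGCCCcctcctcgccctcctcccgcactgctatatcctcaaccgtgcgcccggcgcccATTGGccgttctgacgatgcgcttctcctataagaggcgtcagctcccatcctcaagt
Slc18a2 (chr19:59260748-59260877, plus strand): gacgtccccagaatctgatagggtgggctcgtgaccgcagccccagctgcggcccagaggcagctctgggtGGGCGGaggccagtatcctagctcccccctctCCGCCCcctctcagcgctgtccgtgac

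*Hdc* had a GGGCGG match 48 bases before its start and no match to GATAA, the E-boxes, TATAAA or CCAAT in its window. The upstream start of *Tph1* had no match to any of the 6 motifs. Its downstream start had GGGCGG on the opposite strand at 138 bases, outside the stretch printed, and at 117 bases. It also had CCAAT on the opposite strand at 58 bases. *Slc18a2* had GGGCGG at 59 bases and, on the opposite strand, at 27 bases, and a GATAA match on the opposite strand at 230 bases, outside the stretch printed. Over all 32851 RefSeq start regions of this length, 22.6% held GATAA, 12.3% CATGTG, 6.02% CACGTG, 12.4% TATAAA, 32.7% GGGCGG and 33.8% CCAAT. These matches describe letters in the window, and no binding was measured.

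*Hdc*, the gene of histamine synthesis, was lower after *Zc3h12a* RNP in 4 of 4 pairs at TMM scaling, as were 8.54% of all genes tested, and in 3 of 4 at total count or upper quartile scaling. Its difference did not pass the adjusted test. After scrambled RNP it had 161.5, 87.7, 246.3 and 93.2 CPM in replicates 1 to 4, and after *Zc3h12a* RNP 60.5, 85.8, 108.8 and 73 CPM. Replicates 1 and 3 after scrambled RNP stood above all 4 *Zc3h12a* RNP samples, replicates 2 and 4 lay within their range, and the groups overlapped. The means were 147.2 ± 74.1 CPM (SD, n = 4) and 82 ± 20.6 CPM (SD, n = 4). In the pairs the log2 difference was -1.42, -0.03, -1.18 and -0.35, so the difference lay mainly in pairs 1 and 3, and pair 2 was nearly level. The fitted log2 fold change was -0.75 ± 0.22 (standard error) (unadjusted p = 0.0113, adjusted p = 0.645 over 14934 genes, edgeR's quasi-likelihood test). The exact permutation test over the signs of the 4 pairs gave p = 0.125 (two-sided), which is the smallest value that 4 pairs allow. The study itself named *Hdc* on these same samples, so its direction is not independent evidence.

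Whether *Hdc* passed a log2 fold change beyond 0.5 together with an adjusted p of 0.05 or less depended on the processing. With the p unadjusted, *Hdc* passed in the main edgeR test, as did 130 of 14934 genes (0.87%). After adjustment the edgeR test with its filter on low counts called 0 of 14934 genes (0%), *Hdc* among the genes not called, while 922 genes (6.17%) reached an unadjusted p of 0.05 or less and the lowest adjusted p of any gene was 0.0558. DESeq2 with the same replicate block called 59 of 23473 genes (0.251%), and *Hdc* was one of them at -0.77 on the log2 scale (adjusted p = 0.018). Without a filter on low counts edgeR called 40 of 23473 genes (0.17%), among them *Hdc* at -0.71 (adjusted p = 0.0249). Without replicate 2, the pair in which *Hdc* was nearly level, edgeR called 137 of 15082 genes (0.908%), and *Hdc* was at -0.93 with an adjusted p of 0.000105. Without replicate 1, the pair with the largest difference, *Hdc* was at -0.47 (adjusted p = 1), and over all 12 alternatives it ranged from -0.93 to -0.47. The direction was the same in each alternative and the call was not.

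**Figure D2:**
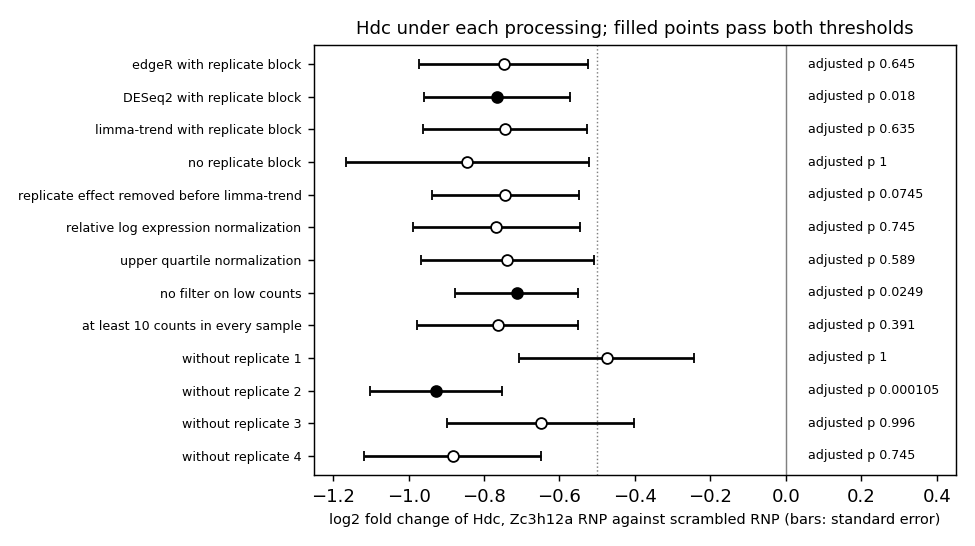
Fitted log2 fold change of *Hdc*, *Zc3h12a* RNP against scrambled RNP, with its standard error, under the edgeR test with the replicate block (top) and 12 alternatives, with the adjusted p at the right and a dotted line at -0.5. All points lie below 0, and the filled points, DESeq2, no filter on low counts and without replicate 2, pass both thresholds.

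*Tph1* showed a small difference in the same direction. After scrambled RNP it had 7912, 7498, 7257 and 7741 CPM, and after *Zc3h12a* RNP 6660, 6481, 7075 and 7210 CPM. At this scaling the groups did not overlap, with 7257 CPM as the lowest scrambled value and 7210 CPM as the highest *Zc3h12a* value; 138 of the 14934 genes tested (0.924%) had groups that did not overlap. The means were 7602 ± 286 CPM (SD, n = 4) and 6856 ± 343 CPM (SD, n = 4), and the log2 differences in the pairs were -0.25, -0.21, -0.04 and -0.10. The fitted log2 fold change was -0.15 with a standard error of 0.07 and did not pass the test (unadjusted p = 0.0641, adjusted p = 0.844, edgeR), and the exact permutation test over the 4 pairs gave p = 0.125. The fitted value was -0.07 without replicate 1 or replicate 2 and -0.24 without replicate 3.

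This separation rested on the TMM scaling. When the counts were divided by the total count alone, the scrambled samples had 7770, 6621, 7086 and 8296 CPM of *Tph1* and the *Zc3h12a* samples 6846, 6245, 7256 and 7776, so the groups overlapped and *Tph1* was higher in pair 3. With scaling by relative log expression the groups also overlapped, and *Tph1* was level in pair 4 (log2 difference 0.002), and with upper quartile scaling they overlapped while all 4 pairs were lower. *Hdc* likewise was lower in 4 of 4 pairs at TMM and relative log expression scaling but in 3 of 4 at total count and upper quartile scaling, where pair 2 was higher by 0.10 and 0.06 on the log2 scale. The counts behind these values are large, 149560 to 249569 for *Tph1*, which was 0.624 to 0.83% of all counts of a sample, and 1744 to 6255 for *Hdc*.

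**Figure D3:**
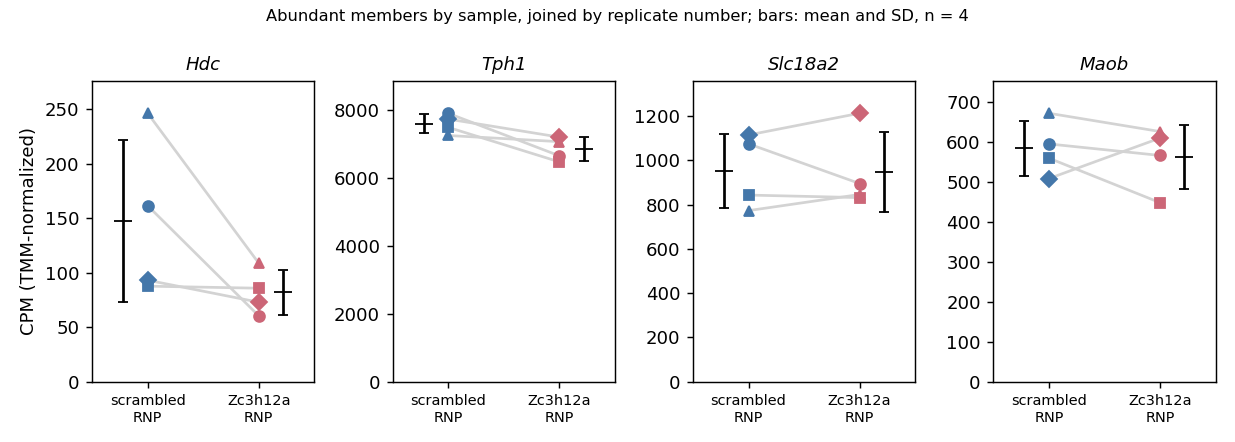
CPM of *Hdc*, *Tph1*, *Slc18a2* and *Maob* in each sample at TMM scaling, with grey lines between samples of the same replicate number and black bars for the mean and SD of each group (n = 4). The lines of *Hdc* run down steeply in pairs 1 and 3, *Tph1* is lower in each pair by at most 0.25 on the log2 scale, and the lines of *Slc18a2* and *Maob* cross.

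*Ddc*, on chromosome 11, encodes the aromatic amino acid decarboxylase that turns 5-hydroxytryptophan into serotonin. It was read at a low level, from 113 to 356 counts per sample. After scrambled RNP it had 4.79, 3.77, 12.5 and 12 CPM, and after *Zc3h12a* RNP 6.69, 8.28, 14.6 and 9.03 CPM. The groups overlapped, with replicates 1 and 2 after scrambled RNP lowest, and *Ddc* was higher in pairs 1 to 3 and lower in pair 4 (log2 fold change 0.35, standard error 0.24, adjusted p = 0.96, edgeR). Per kilobase, *Tph1* stood 799 to 3290 times above *Ddc*, the enzyme of the step that follows it, or 400 to 1650 times with canonical transcript lengths. With a replicate left out, the fitted value of *Ddc* ranged from 0.16 (without replicate 2) to 0.60 (without replicate 4).

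*Slc18a2*, on chromosome 19, encodes VMAT2, the carrier that loads both histamine and serotonin into granules. It had 1074, 842.7, 772.6 and 1114 CPM after scrambled RNP and 894.9, 831.3, 845.3 and 1212 CPM after *Zc3h12a* RNP. The groups overlapped, the gene was lower in pairs 1 and 2 and higher in pairs 3 and 4, and the fitted log2 fold change was -0.01 with a standard error of 0.09 (adjusted p = 0.993, edgeR). The neuroendocrine carrier VMAT1, encoded by *Slc18a1*, had a median of 0.135 CPM per kilobase.

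The uptake carriers were close to the lower end of what was counted. *Slc6a4*, on chromosome 11, encodes the serotonin transporter. After scrambled RNP it had 0.824, 1.1, 1.81 and 4.43 CPM and after *Zc3h12a* RNP 1.21, 1.99, 1.65 and 1.62 CPM, from 26 to 93 counts per sample. Replicate 4 after scrambled RNP was the highest of the 8, and the fitted change was -0.04 ± 0.52 on the log2 scale (standard error, adjusted p = 0.993, edgeR). *Slc18a2* stood 240 to 1240 times above *Slc6a4* per kilobase. *Slc22a3*, on chromosome 17, encodes the organic cation transporter OCT3, which carries histamine and serotonin with low affinity. It had 1.14, 0.167, 1.5 and 3.71 CPM after scrambled RNP and 1.42, 1.99, 3.33 and 1.59 CPM after *Zc3h12a* RNP. The 0.167 CPM of scrambled replicate 2 came from 5 counts, the groups overlapped, and the fitted change was 0.82 ± 0.77 on the log2 scale (standard error, adjusted p = 0.96, edgeR). It was 0.14 without replicate 2 and 1.52 without replicate 4.

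The 2 monoamine oxidase genes, which lie side by side on the X chromosome on opposite strands, were far apart in level. *Maob* had 594.8, 559.2, 671.5 and 508.2 CPM after scrambled RNP and 566, 448, 625.8 and 609.4 CPM after *Zc3h12a* RNP. The groups overlapped, *Maob* was lower in pairs 1 to 3 and higher in pair 4, and the log2 fold change was -0.06 with a standard error of 0.11 (adjusted p = 0.96, edgeR). *Maoa*, whose enzyme is known for its preference for serotonin, had 0.666 to 1.03 CPM after scrambled RNP and 0.357 to 1.43 CPM after *Zc3h12a* RNP, from 11 to 33 counts per sample, with a fitted change of -0.13 ± 0.50 on the log2 scale (standard error, adjusted p = 0.975, edgeR). Per kilobase, *Maob* was 380 to 2070 times *Maoa* in the 8 samples.

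*Hnmt*, on chromosome 2, encodes histamine N-methyltransferase. It was counted 6, 0, 11 and 16 times after scrambled RNP and 4, 7, 14 and 6 times after *Zc3h12a* RNP, in replicates 1 to 4. The sample with 0 counts, scrambled replicate 2, was the most deeply sequenced. In that sample 3 counts correspond to 0.1 CPM at TMM scaling, which covers counting error only. *Hnmt* did not pass the filter on low counts and was not tested, and it was lower in 2 of 4 pairs and higher in 2.

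The values of 4 low members, *Ddc*, *Slc6a4*, *Slc22a3* and *Hnmt*, were set beside a measure of the libraries. The smell receptor genes (803 gene symbols, chosen after the data were seen), best known from the olfactory epithelium, summed to 203, 131, 360 and 533 CPM after scrambled RNP and 253, 395, 360 and 245 CPM after *Zc3h12a* RNP. Scrambled replicate 4, the highest in this sum, was also the highest in *Slc6a4*, *Slc22a3* and *Hnmt*, and scrambled replicate 2, the lowest in this sum, was also the lowest in *Slc22a3*, *Hnmt* and *Ddc*, while *Slc6a4* was lowest in scrambled replicate 1. *Maoa* did not follow this order, with 0.666 CPM in scrambled replicate 4 and 1.03 CPM in scrambled replicate 2. *Tph2*, the tryptophan hydroxylase of neurons, ranged from 0.467 CPM in scrambled replicate 2 to 9.99 CPM in scrambled replicate 4. Per kilobase of the exon union its median of 1.48 CPM was above that of *Ddc* (0.839). With the length of the canonical transcript the order was the reverse, at 1.62 for *Tph2* and 2.46 for *Ddc*. The part of this library measure in the values of the low members was not tested. In addition, exons of *Ddc*, *Slc18a2* and *Slc22a3* overlap exons of genes on the other strand in the annotation (the noncoding 1700042O10Rik for *Ddc*, *Pdzd8* and Gm29261 for *Slc18a2*, *Plg* and Gm65152 for *Slc22a3*), and the strand setting of the counting is not given in the sources used here.

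**Figure D4:**
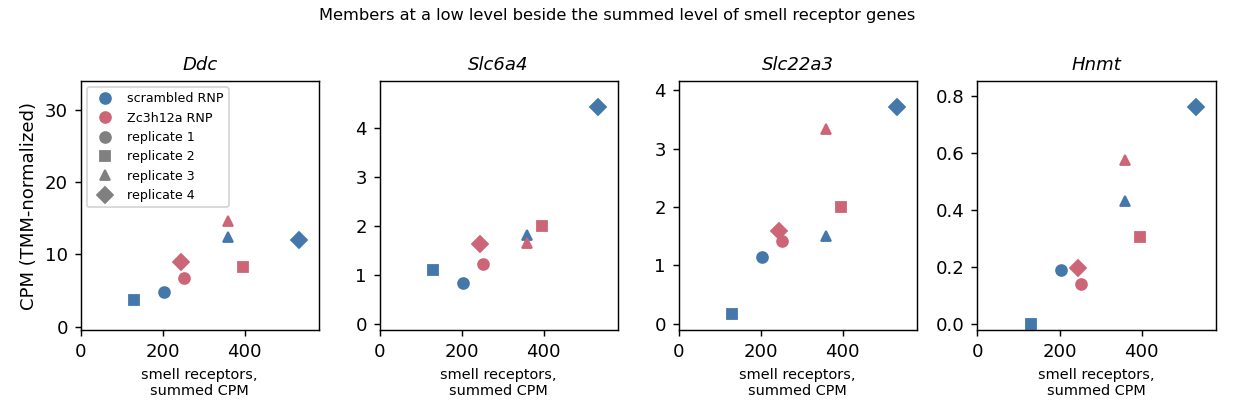
CPM of *Ddc*, *Slc6a4*, *Slc22a3* and *Hnmt* in each of the 8 samples (vertical axes) against the summed CPM of 803 smell receptor genes in the same sample (horizontal axes), with blue for scrambled RNP, red for *Zc3h12a* RNP and a symbol for each replicate number. Scrambled replicate 4, at 533 CPM of smell receptors, is highest in *Slc6a4*, *Slc22a3* and *Hnmt*.

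Across the 9 genes, 8 were tested and 0 were called, as were 0 of all 14934 genes tested (0%). Of the 8 tested members only *Hdc* (1 gene) reached an unadjusted p of 0.05 or less, against 6.17% of all genes tested. At TMM scaling, 2 of the 8 tested members, *Hdc* and *Tph1*, were lower in all 4 pairs, against 8.54% of all genes tested, and 0 were higher in all 4, against 4.98%. The fitted log2 fold change was negative for 6 and positive for 2, with a median of -0.05 over the 8, where the median of all genes tested was 0.04; with upper quartile normalization 5 were negative and 3 positive. In bulk samples, fewer cells of a type and less RNA per cell cannot be told apart. Among the mast cell markers, 7 of 8 had a negative log2 fold change (median of the 8 -0.12), and *Mcpt4* had a positive one (0.33). At TMM scaling, 3 of the 8 were lower in all 4 pairs. These were *Ms4a2*, the gene of an IgE receptor subunit, at -0.10 (unadjusted p = 0.182, edgeR), *Tpsb2*, a tryptase, and *Srgn*, the granule proteoglycan serglycin, the last 2 at -0.28 (unadjusted p = 0.00708, adjusted p = 0.554, edgeR) and -0.23 (unadjusted p = 0.0217, adjusted p = 0.686, edgeR); 0 of the 8 were called. The share of the differences in *Hdc* and *Tph1* that goes with these markers was not tested.

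**Figure D5:**
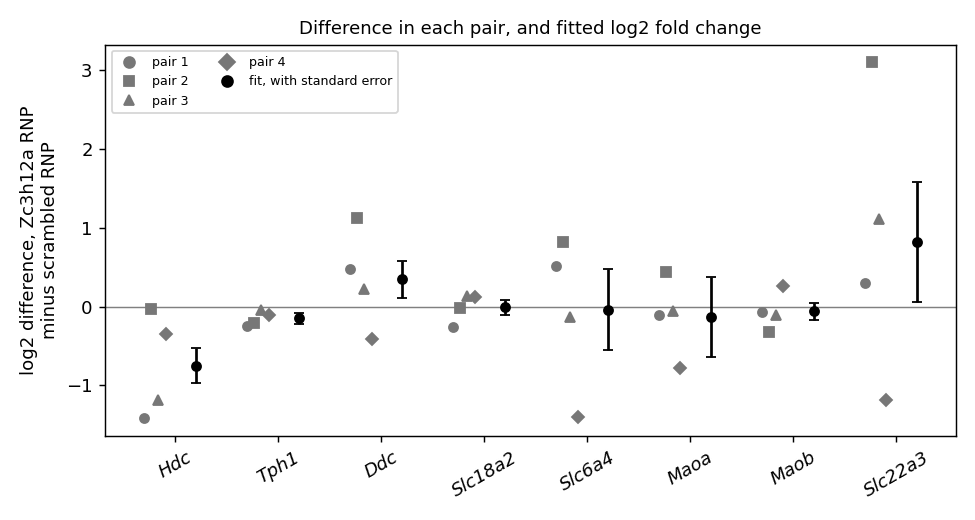
Log2 difference, *Zc3h12a* RNP minus scrambled RNP, in each of the 4 pairs (grey symbols) and the fitted log2 fold change with its standard error (black) for the 8 tested members. *Hdc* and *Tph1* lie below 0 in all 4 pairs at TMM scaling, though not at every other scaling, and the spread between pairs is widest for *Slc22a3*.

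The genes that supply these reactions were read as lists, and 0 of their genes were called, as were 0 of all 14934 genes tested. Of 8 genes that make or recycle tetrahydrobiopterin, the cofactor of tryptophan hydroxylase, 5 had a negative and 3 a positive log2 fold change (median -0.02), and *Gch1*, its first and rate-limiting enzyme, had 166.7 ± 59.1 CPM (SD, n = 4) after scrambled RNP and 158.1 ± 29.6 CPM (SD, n = 4) after *Zc3h12a* RNP. Of 4 genes for pyridoxal phosphate, the cofactor of both decarboxylases, 3 were negative and 1 positive (median -0.10), with *Pdxk*, pyridoxal kinase, at 112 ± 29.8 and 104.1 ± 37 CPM (SD, n = 4 each). Amino acid carriers were led per kilobase by *Slc3a2*, the heavy chain of some of these carriers, at 811.6 ± 133 and 803.3 ± 98 CPM (SD, n = 4 each). Over the 8 samples *Slc7a8* had 1026 to 1415 CPM and *Slc7a5* 52.6 to 230.9 CPM. *Slc16a10* had only 4.13 to 7.89 CPM and *Slc38a5* at most 0.0666 CPM. Of the 5 measured genes 4 were tested, 2 in each direction (median 0.06). Enzymes that divert histidine or tryptophan elsewhere were low, at 5.61 to 14.1 CPM in sum, with *Afmid*, kynurenine formamidase, leading per kilobase, and the 4 tested of 7 had a positive log2 fold change (median 0.32). Of these *Ido2*, *Tdo2* and *Kmo* were higher in only 2 of 4 pairs each, with their largest differences (2.54, 2.31 and 2.66 on the log2 scale) in pair 2, whose scrambled sample was the lowest in the smell receptor sum.

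Other enzymes of amine breakdown were led by *Aldh2*, the mitochondrial aldehyde dehydrogenase that acts on the products of monoamine oxidase, at 982 ± 161 CPM after scrambled RNP and 999 ± 125 CPM after *Zc3h12a* RNP (SD, n = 4 each), and 4 of the 5 tested were positive (median 0.03; 3 of 5 with relative log expression normalization). Other enzymes of amine hormones were led by *Tph2*, with 2 of 3 tested, 1 in each direction (median 0.17). The proton pump that drives vesicular loading was covered by 18 genes, led per kilobase by *Atp6v0b*, with 9 positive and 9 negative (median -0.01). Of these, *Atp6v1d* (log2 fold change -0.29, unadjusted p = 0.00922, adjusted p = 0.617, edgeR) and *Atp6v1g1* (-0.26, unadjusted p = 0.0175, adjusted p = 0.686, edgeR), which encode subunits of its cytoplasmic part, were lower in all 4 pairs at TMM scaling, as was *Atp6v0d2* (-0.47, unadjusted p = 0.342, edgeR). Over all genes tested, 8.54% were lower in all 4 pairs. Of 6 mast cell transcription factor genes, led per kilobase by *Gata2*, 6 had a negative log2 fold change (median -0.13; 5 of 6 with upper quartile normalization), and 3 (*Gata1*, *Tal1* and *Stat5a*), against 8.54% of all genes tested, were lower in all 4 pairs at TMM scaling. Of these, *Gata1*, a regulator of mast cell differentiation, was at -0.22 (unadjusted p = 0.0257, adjusted p = 0.7, edgeR). Basophil markers, 3 of 3 tested, had a median of -0.10, platelet markers, 3 of 5 tested, a median of 0.01 (-0.01 with relative log expression normalization), and macrophage markers, 2 of 6 tested, a median of 0.14. Of these markers 0 were called, as were 0 of all 14934 genes tested.

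The genes whose log2 CPM followed a member most closely over the 8 samples were sought among the 9668 tested genes whose mean log2 CPM exceeded 2. For *Hdc* these were *Gimap6*, a GTPase of the GIMAP family (r = 0.99), the noncoding *Gas5* (r = 0.97) and *Nkiras1* (r = 0.90). For *Tph1* they were *Tmem135* (r = 0.97), *Elovl5*, a fatty acid elongase (r = 0.91), and *Pold4*, a DNA polymerase subunit (r = 0.91). For *Slc18a2* they were *Mrgpra4* (r = 0.98), *Bfar* (r = 0.97) and *Enpp4* (r = 0.97). These Pearson correlations over 8 samples are descriptions, and the points share mice and libraries.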

How the data were processed

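RNA of 8 BMMC samples was analysed, 4 after scrambled and 4 after *Zc3h12a* RNP. Per the paper and the labels, the authors aligned poly(A) reads with HISAT2 2.2.1 to GRCm39 and counted them per gene with featureCounts 2.0.1 (FastQC 0.11.9 for read quality), and the deposited values are these raw counts; the strand setting and the handling of reads with several matches are not given in the sources used here. Tests used edgeR 4.0.16 under R 4.3.3 (quasi-likelihood test, TMM, filter on low counts, model of replicate number and RNP), with Benjamini-Hochberg adjustment over 14934 genes. Calls needed an absolute log2 fold change over 0.5 together with an adjusted p of 0.05 or less; the study used the same numbers, without stating whether its P was adjusted. Standard errors were derived from the F statistic, and pair differences are of log2 CPM with a prior count of 2. Alternatives used DESeq2 1.42.0, limma 3.58.1, other normalizations, filters, no block and each replicate left out; the transcript length and the scaling of CPM per pair were added after seeing the data.

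The pairing comes from the series' design of 4 mice; the labels do not say that a number marks a mouse. Deviations from the group means correlated at 0.756, 0.717, 0.728 and 0.719 between same-numbered samples and at most 0.137 otherwise (9668 genes with a mean log2 CPM above 2). Over all genes tested the same-numbered values were 0.595, 0.0752, 0.624 and 0.0414. There the same number was not the closest match for scrambled replicates 2 and 4. Scrambled replicate 2 correlated at 0.398 with *Zc3h12a* RNP replicate 1, and scrambled replicate 4 at 0.35 with *Zc3h12a* RNP replicate 3. Every pair of samples of a group differed beyond sampling noise (chi-square at least 53.6 per degree of freedom). The test was also run on simulated counts that held no replicate effect, unlike these data, and its outcome is not reported here. Lengths come from GENCODE on GRCm39 (22601 symbols matched, 2 by an older symbol, 1456 not). The members, lists and named genes were chosen with earlier results of these data known; named were the members, the targeted gene, the list genes at an unadjusted p at or under 0.05, the leading gene of each list and the 3 genes most alike *Hdc*, *Tph1* and *Slc18a2*. Marker genes, *Slc18a1*, amino acid carriers other than *Slc3a2*, the smell receptors and neighbours on the other strand were named after values were seen. List genes without a row in the files, among them *Slc38a3*, *Aoc1* and *Hrh3*, are not analysed here, and the list of other amine transporters is not reported here.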

Additional observations from a re-analysis of the deposited data

Results flagged for a closer look

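Among the 18 groups of 4 samples of the 9 genes, 1 group held a sample that stood apart, and chance alone would give about 0.9 such groups (1 in 20). *Slc18a2* in *Zc3h12a* RNP replicate 4 had 1212 CPM while the other *Zc3h12a* RNP samples had 831.3 to 894.9 CPM, and its gap to the nearest of them was 0.833 of the range of the group, above Dixon's 95% critical ratio for 4 samples. Scrambled replicate 4, its pair, was also the highest of its group, at 1114 CPM.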

How the results depend on the processing

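The number of genes called was 0 with the replicate block in edgeR and 0 with no replicate block or upper quartile normalization, but 59 with DESeq2, 1 with limma-trend, 113 after removal of the replicate effect before limma-trend, 1 with relative log expression normalization, 40 without a filter on low counts, 3 with at least 10 counts in every sample, and 0 to 137 with a replicate left out. Of the members, 1 (*Hdc*) was called with DESeq2, without a filter and without replicate 2, and 0 in the other alternatives; with a replicate left out the number was 0 to 1. With no replicate block *Hdc* was at -0.84 (adjusted p = 1, edgeR), and the absence of the block changed no call of a member. Of 95 fold changes of members under the alternatives, 85 kept their direction and side of the threshold, 3 (*Hdc*) newly passed it and 7 turned in sign. Those that turned were *Slc18a2* with upper quartile normalization (0.00367), without a filter (0.0256), without replicate 1 (0.122) and without replicate 2 (0.058), *Maob* without replicate 2 (0.0905), *Slc6a4* without replicate 4 (0.423) and *Maoa* without replicate 4 (0.104); the cause was not tested. With a replicate left out these genes ranged from -0.107 to 0.122 (*Slc18a2*), -0.164 to 0.0905 (*Maob*), -0.31 to 0.423 (*Slc6a4*) and -0.27 to 0.104 (*Maoa*). Genes with 11 to 93 counts per sample, such as *Maoa* and *Slc6a4*, had standard errors near 0.5 on the log2 scale, so that a difference of that size could not be told from 0; the cause was not tested. Median differences of all genes moved by less than 0.1 on the log2 scale between scalings (0.0112 to 0.0871). The number of pairs in which *Slc18a2* was lower was 2 at TMM scaling and 1 at total count or upper quartile scaling.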

Other observations

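Receptors for the same amines were also counted. *Hrh2*, a histamine receptor that signals through cyclic AMP, had 25.4 ± 4.06 CPM (SD, n = 4) after scrambled RNP and 31.1 ± 7.68 CPM (SD, n = 4) after *Zc3h12a* RNP. It was higher in all 4 pairs at TMM scaling, as were 4.98% of all genes tested. Its log2 fold change was 0.27, the groups overlapped, and it did not pass the adjusted test (unadjusted p = 0.0413, adjusted p = 0.772, edgeR). *Hrh4*, the histamine receptor best known for the migration of mast cells and eosinophils, had 15.1 ± 7.07 and 15.4 ± 8.74 CPM (SD, n = 4 each) and was higher in 2 of 4 pairs, while *Hrh1* had at most 0.104 CPM in any sample. Of 13 serotonin receptor genes measured, 7 passed the filter (4 positive, 3 negative, median 0.12). Of these 7, 0 were called, as were 0 of all 14934 genes tested. The 13 summed to 4.03 to 8.88 CPM per sample, led per kilobase by *Htr7*.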
